A study of Mus musculus with 18 samples.

Results

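The longest H3K27me3 domains of mouse bone marrow-derived macrophages (BMDM) are described here. They were found by merging the H3K27me3 peaks of WT, mdx and mdxTLR4-/- BMDM that overlapped by at least 1 bp on chromosomes 1 to 19, and by keeping the merged regions that were touched by a peak of all 3 genotypes and were at least 50 kb long. This gave 794 domains among 36072 merged regions, of which 17005 were touched by all 3 genotypes (called shared regions below). The members were thus chosen by peak position, length and presence in all 3 lists, and everything measured from those peaks is given as a description, with no test. The BMDM were grown from the marrow of male mice in medium conditioned by L929 fibroblasts and were not stimulated. WT mice are labelled C57BL6, mdx mice are labelled Dmdmdx-4Cv and carry a mutation of the dystrophin gene, and mdxTLR4-/- mice (mTLR4 in some labels) carry an mdx mutation and lack the receptor TLR4. The labels give the strain Bl6/Bl10 for the mdxTLR4-/- samples, whereas in the methods of the study C57BL/6J is the background named for WT, mdx and TLR4-/- animals alike. Each genotype had 2 ChIP libraries and 2 inputs for H3K27me3, made from chromatin cut with micrococcal nuclease without crosslinking. The labelled ages of the mice behind the ChIP libraries were 12 and 13 weeks for WT, 14 and 15 weeks for mdx and 16 and 17 weeks for mdxTLR4-/-, so that age, labelled strain and genotype cannot be told apart. The inputs are labelled 6 to 11 weeks. Over all 18 samples the labelled age goes up by exactly 1 week from each sample to the next in order of deposit, so the labels may not give the true ages. H3K27ac was profiled in 2 WT, 2 mdx and 1 mdxTLR4-/- library, labelled 19 and 20, 21 and 22, and 23 weeks, with 1 input library labelled 18 weeks. The replicates were merged before peaks were called, so that each genotype has 1 list per mark, the variation among mice is not known and differences between genotypes carry no p-value. A peak's value is the count of ChIP reads in it, and read density is that count per kb of peak.

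H3K27me3 is the trimethylation of lysine 27 of histone H3. It is laid down by Polycomb repressive complex 2, whose catalytic subunit is EZH2, and marks genes that are kept silent in a given cell type. It often spreads over broad stretches of chromatin, above all over genes of embryonic patterning such as the Hox clusters. H3K27ac, acetylation of the same residue, marks active promoters and enhancers, and one histone tail cannot carry both. In bulk chromatin, fewer cells that carry the mark and less mark per cell cannot be told apart.

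Promoter sequences show what kind of gene start lay in the domains. Each is the RefSeq window from 250 bases before to 50 bases after the annotated start (GRCm38.p6, 5′ to 3′ on the strand of the gene), with every CpG in capitals. A window was used only where the RefSeq start lay at most 300 bp from the GENCODE start that defines gene starts elsewhere in the text. For Adra2c the starts are 247 bp apart, for Hoxd13 85 bp and for Cdkn2a 34 bp, and for the others they are the same. Shown are, for a domain of each of 3 Hox clusters and for 3 of the longest domains, the gene nearest to the centre of the domain among those with such a window, and Cdkn2a, which was chosen after its values were seen.
Hoxa13 (chr6:52260831-52261130, minus strand): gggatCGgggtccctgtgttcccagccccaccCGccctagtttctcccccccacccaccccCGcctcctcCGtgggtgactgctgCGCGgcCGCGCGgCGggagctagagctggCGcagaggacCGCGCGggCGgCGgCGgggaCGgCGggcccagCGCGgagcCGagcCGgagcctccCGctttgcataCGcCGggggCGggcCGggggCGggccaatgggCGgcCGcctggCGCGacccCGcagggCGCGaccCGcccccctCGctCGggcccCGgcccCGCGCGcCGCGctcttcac
Hoxd13 (chr2:74667975-74668274, plus strand): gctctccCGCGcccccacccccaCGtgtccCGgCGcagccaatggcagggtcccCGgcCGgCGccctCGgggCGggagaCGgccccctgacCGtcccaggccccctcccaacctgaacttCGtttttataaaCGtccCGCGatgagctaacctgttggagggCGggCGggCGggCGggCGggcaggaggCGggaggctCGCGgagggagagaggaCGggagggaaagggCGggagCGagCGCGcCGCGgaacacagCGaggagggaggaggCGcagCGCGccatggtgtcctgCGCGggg
Hoxb8 (chr11:96281655-96281954, plus strand): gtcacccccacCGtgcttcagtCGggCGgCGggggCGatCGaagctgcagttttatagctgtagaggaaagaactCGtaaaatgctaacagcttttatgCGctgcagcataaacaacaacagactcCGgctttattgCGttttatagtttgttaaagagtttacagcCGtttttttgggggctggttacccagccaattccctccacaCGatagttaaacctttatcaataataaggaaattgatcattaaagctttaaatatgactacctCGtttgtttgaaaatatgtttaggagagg
Cdkn2a (chr4:89294570-89294869, minus strand): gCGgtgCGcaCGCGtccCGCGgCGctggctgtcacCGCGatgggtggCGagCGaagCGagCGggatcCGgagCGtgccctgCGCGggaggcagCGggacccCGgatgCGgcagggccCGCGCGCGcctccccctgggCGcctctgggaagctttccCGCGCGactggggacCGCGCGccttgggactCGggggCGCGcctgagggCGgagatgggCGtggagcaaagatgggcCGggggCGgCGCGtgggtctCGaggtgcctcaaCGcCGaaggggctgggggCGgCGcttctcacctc
Chst15 (chr7:132317179-132317478, minus strand): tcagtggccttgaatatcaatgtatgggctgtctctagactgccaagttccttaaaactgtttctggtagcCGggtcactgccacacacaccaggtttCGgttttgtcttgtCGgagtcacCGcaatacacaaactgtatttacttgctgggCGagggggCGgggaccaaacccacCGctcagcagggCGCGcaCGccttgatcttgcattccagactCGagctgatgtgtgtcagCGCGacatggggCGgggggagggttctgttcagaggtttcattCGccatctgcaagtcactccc
Adra2c (chr5:35278316-35278615, plus strand): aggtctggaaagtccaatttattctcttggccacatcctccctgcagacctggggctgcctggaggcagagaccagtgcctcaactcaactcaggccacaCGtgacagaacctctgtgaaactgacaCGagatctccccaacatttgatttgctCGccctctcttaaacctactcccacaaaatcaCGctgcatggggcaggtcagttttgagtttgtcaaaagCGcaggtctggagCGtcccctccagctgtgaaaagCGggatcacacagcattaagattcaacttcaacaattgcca
Sppl2c (chr11:104186077-104186376, plus strand): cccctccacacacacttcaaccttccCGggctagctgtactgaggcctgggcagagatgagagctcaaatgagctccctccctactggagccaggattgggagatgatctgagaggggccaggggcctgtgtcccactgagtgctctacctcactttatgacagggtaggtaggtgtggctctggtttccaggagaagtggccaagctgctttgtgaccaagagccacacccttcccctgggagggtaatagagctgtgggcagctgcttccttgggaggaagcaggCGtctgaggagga

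CpG number varied widely among these starts. The promoters of Hoxa13 and Cdkn2a held 45 CpG each and that of Hoxd13 held 37, with a G+C content of 81.0%, 77.0% and 74.3%. Hoxb8 held 13 CpG at 42.3% G+C, Chst15 15 and Adra2c 7, and the promoter of Sppl2c, which lies in a 304.6 kb domain, held 2. Over the 925 windows of protein-coding genes in the domains the median was 12 CpG (quartiles 4 and 24), against 14 (4 and 25) over 19174 windows on chromosomes 1 to 19. At least 10 CpG were found in 54.3% of the windows in domains and in 59.3% of all windows, so that CpG-rich starts were no larger a part of the domains than of the genome.

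The Hox clusters also carry microRNA genes, and the mature 5p arms of the miR-10 and miR-196 genes in the domains are shown because each family shares a seed (bases 2 to 8, in capitals, RefSeq, GRCm38.p6).
mmu-miR-10a-5p, Mir10a (chr11:96317186-96317208, plus strand): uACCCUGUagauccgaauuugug
mmu-miR-10b-5p, Mir10b (chr2:74726074-74726096, plus strand): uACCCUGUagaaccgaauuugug
mmu-miR-196a-5p, Mir196a-1 (chr11:96265187-96265208, plus strand): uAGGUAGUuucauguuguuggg
mmu-miR-196a-5p, Mir196a-2 (chr15:102973365-102973386, plus strand): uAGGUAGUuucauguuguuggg
mmu-miR-196b-5p, Mir196b (chr6:52230129-52230150, minus strand): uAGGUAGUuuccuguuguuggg
Other annotated microRNA genes in the Hox domains are not shown. Mir10b, Mir196a-1, Mir196a-2 and Mir196b lay under H3K27me3 peaks of all 3 genotypes. Mir10a, near the end of the Hoxb5 to Hoxb13 domain, lay under a peak in WT alone. In all, 48 of 919 annotated hairpins of chromosomes 1 to 19 lay in domains. This share was near that of protein-coding gene starts, of which 1033 of 20807 (4.96%) lay in domains. Mir9-1, Mir9-3, Mir375, Mir203, Mir208a and Mir208b are examples picked from the 48.

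The domains were few but held a large part of the mark. They made up 4.67% of the shared regions and 26.4% of their length, and covered 69.1 Mb, or 2.81% of chromosomes 1 to 19. Their median length was 71.0 kb, with quartiles of 58.4 and 98.35 kb and a maximum of 317 kb, and 190 domains were at least 100 kb long. Domains took 35.0% of all reads in WT peaks, 33.8% of those in mdx peaks and 37.4% of those in mdxTLR4-/- peaks. Peaks covered 96.1% of the bases of the domains in WT, 94.5% in mdx and 92.1% in mdxTLR4-/-, and 86.8% of the bases were under peaks of all 3 genotypes. No merged region of at least 50 kb lacked a peak of any genotype. The domains were unevenly spread over the chromosomes. Chromosome 11 had 82 domains covering 6.67% of its length, whereas chromosome 3 had 10 covering 0.607%, chromosome 10 had 14 covering 0.796% and chromosome 12 had 14 covering 0.905%. Domains also lay close to one another. With up to 100 kb between neighbours there were groups of several domains, the largest of which held 9 domains over 1032 kb of chromosome 9, from Tecta to Trim29 and including 4 domains named by Grik4, a kainate glutamate receptor subunit. A group of 7 domains over 863.8 kb of chromosome 11 ran from B4galnt2 through the Hoxb cluster to Skap1.

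The label of the cells was checked against marker genes. None of 10 macrophage markers (such as Csf1r, Adgre1 and Spi1) had its start in a domain or under an H3K27me3 peak of any genotype, and 9 in WT, 8 in mdx and 9 in mdxTLR4-/- had an H3K27ac peak within 1 kb of the start. Of the markers of B cells, T cells, erythroid cells, muscle and fibroblasts none had an H3K27ac peak there in any genotype, and of 5 neutrophil markers 1 had one in WT alone. In domains lay the starts of 1 of 5 markers each of B cells (Pax5), T cells (Cd3e) and fibroblasts (Col1a1), and of 0 of 5 muscle, 0 of 5 neutrophil and 0 of 3 erythroid markers.

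Genes of embryonic development had a larger share of their starts in domains than protein-coding genes as a whole. The starts of 1033 of 20807 protein-coding genes (4.96%) lay in 566 of the domains, which is 14.9 starts per Mb against 8.45 over chromosomes 1 to 19. In total 1335 protein-coding genes touched a domain, and 749 lay wholly inside one. Of 41 genes of the Hox clusters, which set position along the body axis, 34 had their start in a domain (82.9%, Wilson 95% interval over genes 68.7 to 91.5). The interval takes genes as independent. Genes of a Hox cluster lie side by side and share domains, which the interval does not allow for, and the same holds for neighbours in the other lists. Other homeobox factors followed with 43 of 102 (42.2%, 33.0 to 51.9), and a list of Pax, Sox, T-box, forkhead, GATA and related factors with 32 of 97 (33.0%, 24.4 to 42.8). Secreted Wnt, Hedgehog, FGF and TGF-beta ligands and antagonists had 15 of 77 starts in domains (19.5%, 12.2 to 29.7). Ion channels and neurotransmitter receptors had 30 of 146 (20.5%, 14.8 to 27.8), collagens and other matrix genes 17 of 78 (21.8%, 14.1 to 32.2), and adhesion and axon guidance genes 12 of 90 (13.3%, 7.79 to 21.9).

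No gene of the lists of macrophage genes started in a domain, at a number of genes where the background share of 4.96% lies within the interval. Of 36 macrophage identity genes, 0 had a start in a domain, which by the upper Wilson bound allows a share of up to 9.64%, and the same held for 0 of 19 inflammatory and training genes that the study names, up to 16.8%. Under H3K27me3 peaks outside the domains lay 3, 1 and 1 of the 36 starts in WT, mdx and mdxTLR4-/-. Of the 19 starts there were 3, 2 and 1. Genes of other blood lineages had 5 of 54 (9.26%, 4.02 to 19.9), namely Pax5, Cd3e, Blk, Hoxa9 and the dendritic cell factor Zbtb46. Muscle and fibroblast genes had 7 of 39 (17.9%, 8.98 to 32.7), among them Col1a1, which encodes a chain of type I collagen, Myh7, a slow and cardiac myosin, Des, the muscle intermediate filament desmin, and Pax7, a factor of muscle stem cells. Of 12 cell cycle inhibitors and Polycomb controls, 4 did (33.3%, 13.8 to 60.9), namely Cdkn2a and Cdkn2b, the neighbouring inhibitors of the Ink4 locus, and the imprinted genes Cdkn1c and Igf2. The share in domains is only a part of the share under the mark. In WT, for example, 99 of the 102 other homeobox genes (97.1%) had their start under some H3K27me3 peak, against 24.5% of all protein-coding genes, so most of those outside the domains lay in shorter regions.

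**Figure D1:**
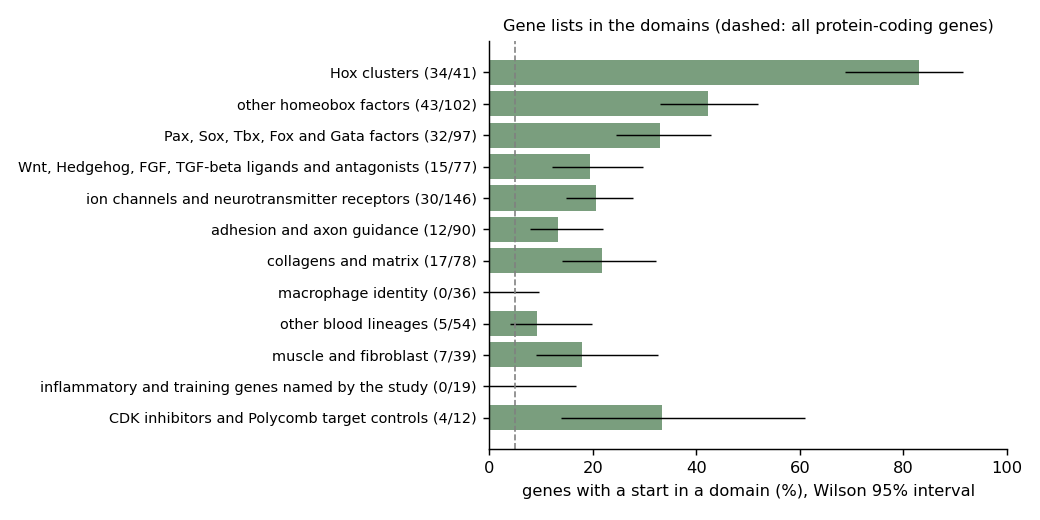
Share of the genes of each list whose start lies in a domain (bars, in percent of the genes found) with the Wilson 95% interval over genes (lines) and the share of all protein-coding genes, 4.96% (dashed line). The interval takes genes as independent, although neighbouring genes can share a domain. The Hox clusters stand highest at 82.9%, and both the macrophage identity genes and the inflammatory genes stand at 0.

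Several of the longest domains held such genes. The longest, 317 kb on chromosome 5 (chr5:35106401-35423400), held Adra2c, an adrenergic receptor, and Hmx1, a homeobox factor. The next lay over Fgfr2 and Chst15 (311.4 kb, chromosome 7), Spry4 and Arhgap26 (310.2 kb, chromosome 18), and Crhr1, Sppl2c and Mapt (304.6 kb, chromosome 11), where Crhr1 is a receptor of corticotropin-releasing hormone and Mapt encodes the microtubule protein tau. A 302.2 kb domain of chromosome 17 held 10 starts, from the mast cell tryptases Tpsab1 and Tpsb2 to the calcium channel Cacna1h and the transcription factor Sox8. Domains of 298.6 kb (Otof to the potassium channel Kcnk3), 296.2 kb (Lhx1, a LIM homeobox factor), 293.4 kb (the forkhead factors Foxc2 and Foxl1), 291.2 kb (the Hoxc cluster), 275.6 kb (Grhl3 to Myom3), 274 kb (Sema7a to Islr2) and 268.4 kb (Pax2) completed the 12 longest. A domain could also hold a cluster of similar genes. The domain with the most starts held 11, mostly keratins from Krt7 to Krt75, and a neighbouring domain on chromosome 15 held 10 keratins from Krt6b to Krt76. A 154.6 kb domain on chromosome 6 held 10 starts, mostly of Gimap genes, GTPases of lymphocytes. Reads were aligned with the default settings of Bowtie2, which give a read that fits several copies 1 place, so the counts of near-identical genes in such clusters are uncertain.

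All 4 Hox clusters lay in domains, in 6 domains in all. The Hoxc cluster formed 1 domain of 291.2 kb with 9 Hox starts (Hoxc4 to Hoxc13). It held 66.9 reads per kb of WT peak, 82.7 of mdx peak and 64.6 of mdxTLR4-/- peak, in 4, 1 and 5 pieces, and the mdx piece was 291 kb long. Hoxb was held by 2 domains, of 238.2 kb (Hoxb5 to Hoxb13) and 129.8 kb (Hoxb1 and Hoxb2). Between them Hoxb3 and Hoxb4 had their starts outside any peak in each genotype, and Hoxb4 had an H3K27ac peak within 1 kb in mdx alone. Hoxc4, inside the Hoxc domain, had an H3K27ac peak of 6 reads within 1 kb in mdxTLR4-/-. In each genotype 1 of the 41 listed starts of the Hox clusters had such a peak. Hoxa formed a 98.4 kb domain with the starts of Hoxa3, Hoxa6, Hoxa7, Hoxa9, Hoxa10, Hoxa11 and Hoxa13 at 76.0, 94.4 and 69.8 reads per kb in WT, mdx and mdxTLR4-/-. Hoxa4 and Hoxa5 had starts under no peak of any genotype, and Hoxa2 and Evx1 lay in shorter shared regions. Hoxd was held by a domain of 77.8 kb (Hoxd8 to Hoxd13 and Evx2) and one of 72 kb (Hoxd1, Hoxd3 and Hoxd4), which lie next to each other. Their mdx to WT density ratios were 1.30 and 1.34, above those of the other Hox domains, which ran from 1.21 to 1.24.

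**Figure D2:**
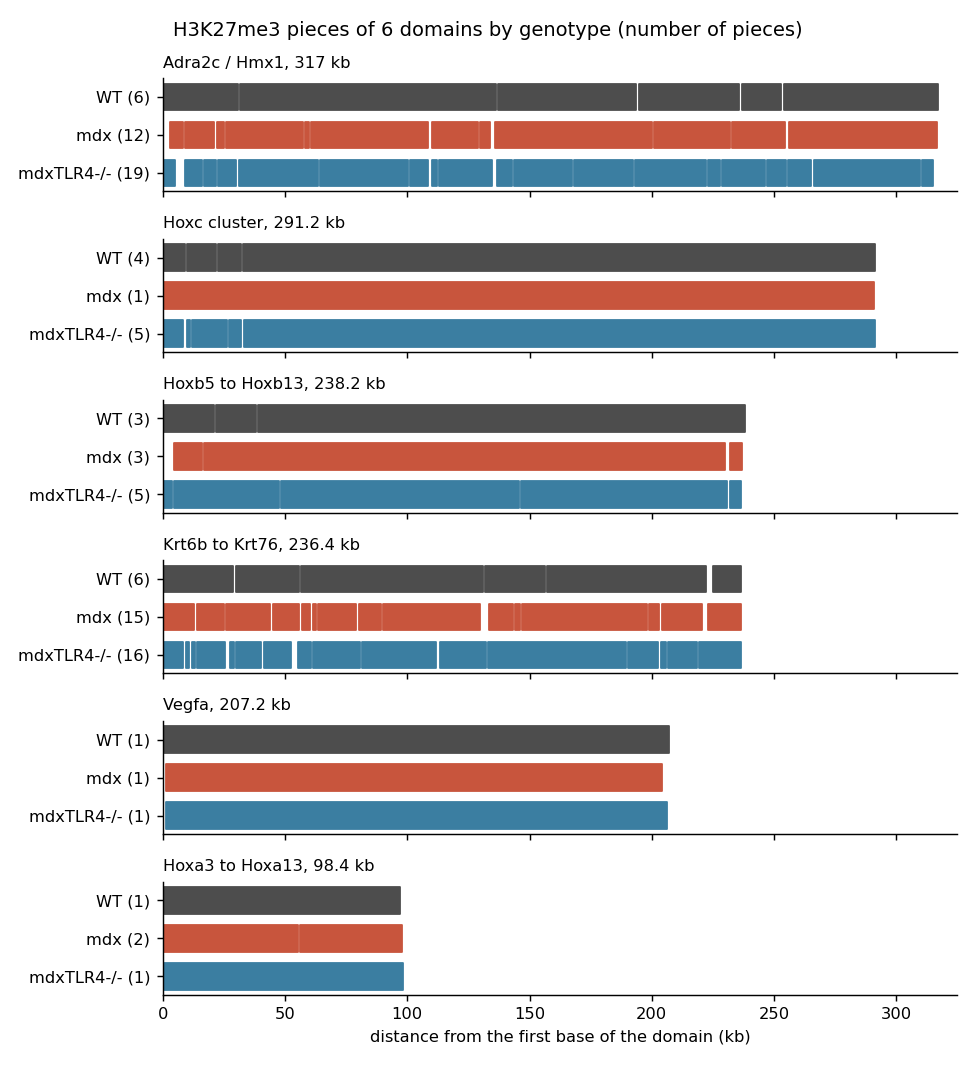
H3K27me3 peaks of WT (grey), mdx (red) and mdxTLR4-/- BMDM (blue) in 6 domains, by distance from the first base of the domain in kb, with the number of pieces after each genotype. The Vegfa domain is 1 piece in each genotype, the Hoxc domain is 1 piece in mdx and 4 and 5 in WT and mdxTLR4-/-, and the Adra2c and Hmx1 domain goes from 6 to 12 and 19 pieces.

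Read density was higher in the domains than in shorter shared regions in every genotype, and rose with length. In the domains the median was 38.9 reads per kb in WT (quartiles 32.7 and 48.0), 47.0 in mdx (39.6 and 57.6) and 37.4 in mdxTLR4-/- (31.2 and 47.0). In the 16211 other shared regions under 50 kb the medians were 25.3, 30.7 and 24.3. From regions of 10 to 20 kb to those of at least 100 kb the median went from 25.6 to 44.6 reads per kb in WT. The mdx list went from 31.3 to 53.2, and the mdxTLR4-/- list from 24.6 to 43.5. Length and density come from the same reads and are not independent measures. Density followed gene content as well. The 74 domains with the start of a listed homeobox, Pax, Sox, T-box, forkhead, GATA or related factor had a median of 51.0 reads per kb in WT, 62.3 in mdx and 50.04 in mdxTLR4-/-. The 492 domains with other protein-coding starts had 39.9, 48.2 and 38.8, and the 228 with no protein-coding start had 33.9, 40.5 and 31.7. The quartiles of the first group in WT, 44.8 and 57.8, lay above the median of the others. Factor domains were also richer in CpG, with a median of 15.8 per kb against 13.0 and 11.6, and longer, with a median of 80.3 kb against 74.4 and 63.1 kb.

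**Figure D3:**
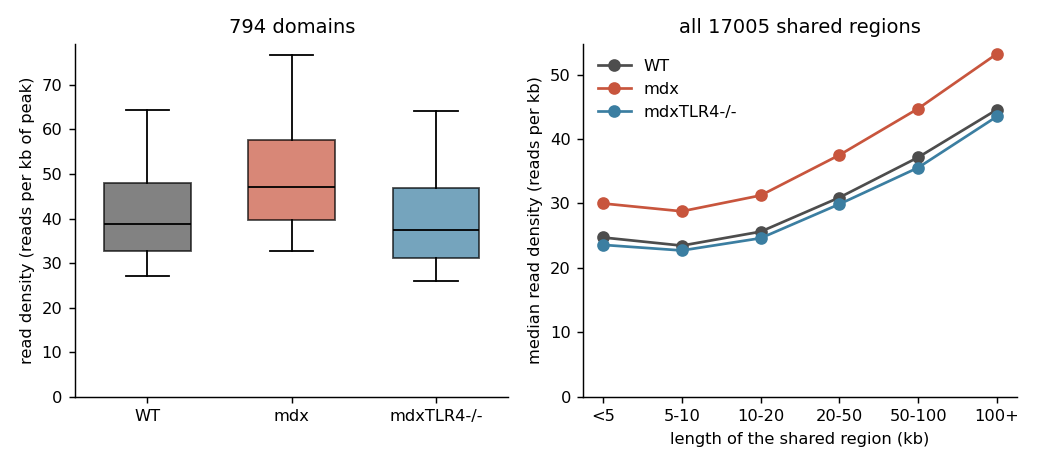
Left, read density of the 794 domains in reads per kb of peak by genotype (line, median; box, quartiles; whiskers, 5th and 95th percentiles over domains). Right, median read density of all 17005 shared regions by length class in kb. The mdx list stands highest in both, at a median of 47.0 in the domains, and all 3 lines rise from regions of 10 to 20 kb on.

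The densest domains in WT were an array of 5S rRNA genes, a stretch of MHC class I genes and domains of chromosomes 2, 7 and 11. The first lay at chr8:123534401-123634200 (99.8 kb), held 51 annotated rRNA genes beside parts of Gm20388 and Gas8, consisted of repeats over 73.9% of its bases, and had 249.6 reads per kb in WT, 222.5 in mdx and 323.7 in mdxTLR4-/-. It was the one domain with a lower density in mdx than in WT, at a ratio of 0.891 (exact read-count interval 0.875 to 0.907), and had the highest ratio of mdxTLR4-/- to WT, 1.30 (1.28 to 1.32). The part of its repeats in these values was not tested. The MHC domain, with H2-Q4, H2-Q6, H2-Q7, H2-Q10 and Pou5f1, had 116, 134 and 118 reads per kb in WT, mdx and mdxTLR4-/-. The domains of Mmp9 and Slc12a5, of Cttn, and of Nptx1 followed, with 94.3, 92.9 and 85.2 reads per kb in WT. Mmp9 encodes a matrix metalloproteinase, Slc12a5 a neuronal chloride transporter and Nptx1 a neuronal pentraxin.

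Between genotypes the unscaled densities differed in the same direction in most domains, by a factor that varied among them. The median ratio of mdx to WT was 1.21 (quartiles over domains 1.16 and 1.25, range 0.891 to 1.498), and 793 of 794 domains (99.9%) had a higher density in mdx, against a background of 90.8% of all shared regions. For mdxTLR4-/- to WT the median was 0.968 (0.939 and 1.00), with 24.7% of the domains higher in mdxTLR4-/- against a background of 37.7%. For mdxTLR4-/- to mdx it was 0.805 (0.770 and 0.838), with 3 domains higher in mdxTLR4-/- (0.378%, background 7.71%). In none of the 794 domains did mdx and WT differ by 1.5 times in either direction, a share of up to 0.481% by the Wilson bound, whereas 8.16% of all shared regions were at least 1.5 times higher and 0.171% at least 1.5 times lower in mdx. None did so for mdxTLR4-/- and WT either (background 1.84% higher and 2.31% lower), nor for mdxTLR4-/- and mdx (background 0.359% higher and 13.3% lower). The domains hold many reads each, with a median of 2757 in WT, 3258.5 in mdx and 2569.5 in mdxTLR4-/-, so that their ratios carry less counting error than those of short regions. The exact 95% read-count interval takes the bases under peaks as fixed. It left out the median ratio in 280 of the 794 domains for mdx to WT, in 214 for mdxTLR4-/- to WT and in 350 for mdxTLR4-/- to mdx. The same count was not made over all shared regions, and removal of duplicate reads is not known. How far the spread among domains goes beyond counting error was not tested.

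The level of these ratios depended on how the lists were set against each other, since library depth is unknown here. Scaled to 1000000 reads in peaks, the median ratio was 0.984 for mdx to WT, 1.10 for mdxTLR4-/- to WT and 1.12 for mdxTLR4-/- to mdx. Divided by the lowest densities of its own list, taken as the 1st percentile (15.5 reads per kb in WT, 18 in mdx and 14.1 in mdxTLR4-/-), the medians were 1.03, 1.06 and 1.03. The order of the genotypes in overall density in the domains is therefore not set by these lists. What did not change with a common factor was the spread and its relation to base composition. The domains were put in 3 groups of nearly equal number by G+C content. In the lowest group (39.8 to 47.5%) the median unscaled ratio of mdx to WT was 1.25, in the middle group 1.20 and in the highest (49.7 to 61.0%) 1.17. For mdxTLR4-/- to WT the order was the other way, with 0.955, 0.969 and 0.988. The same order was present in the 2489 shared regions of 20 to 50 kb, with 1.25, 1.21 and 1.18 for mdx and 0.951, 0.961 and 0.973 for mdxTLR4-/-. The part of base composition in the ratios was not tested.

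**Figure D4:**
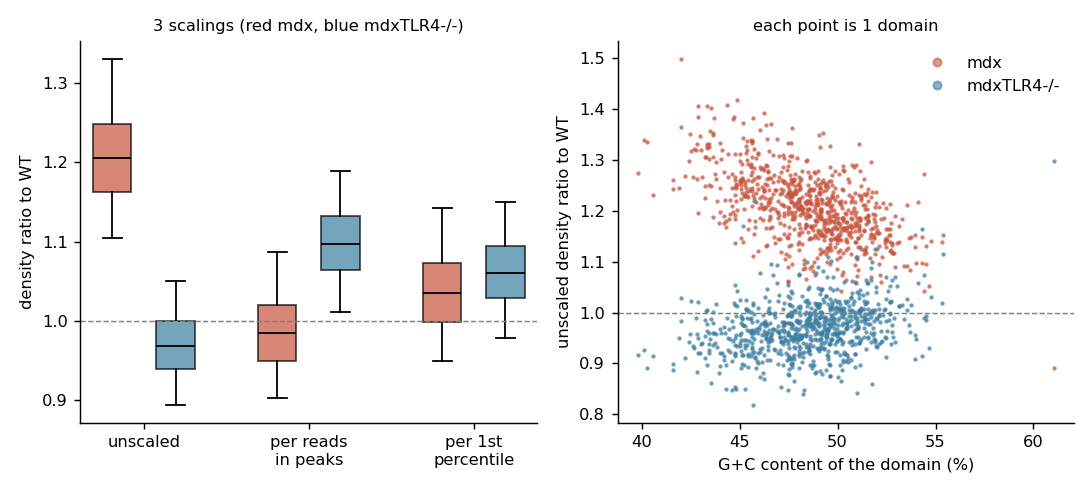
Left, ratio of the read density to WT over the 794 domains for mdx (red) and mdxTLR4-/- (blue) under 3 scalings (line, median; box, quartiles; whiskers, 5th and 95th percentiles), with equal density dashed. Right, unscaled ratio of each domain against its G+C content in percent. The medians of 1.21 and 0.968 move to 0.984 and 1.10 when scaled to reads in peaks, and the single pair of points at 61.0% G+C is the 5S rRNA array.

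The domains at the ends of the range were mostly among the shorter ones. The highest mdx to WT ratio was 1.498 (exact interval 1.40 to 1.60), in a 63.2 kb domain of chromosome 12 without a protein-coding gene that had 26.8 reads per kb in WT, 40.1 in mdx and 27.5 in mdxTLR4-/-. Next was 1.42, in a 117.4 kb domain of chromosome 6 without a protein-coding gene. Slc35f2, a solute carrier, and Mast4, a kinase, named domains with ratios of 1.41 each. The lowest after the 5S array was Spsb1 (50.2 kb), with 34.4 reads per kb in WT and in mdx and a ratio of 1.00 (0.933 to 1.07). For mdxTLR4-/- to WT, the ratio after the 5S array was highest at 1.22 (1.148 to 1.293) in a 58.4 kb domain of chromosome 17 that holds 2 pseudogenes, and 1.17 in an 88.6 kb domain of chromosome 11 with 10 pseudogenes and 54.3% repeats. The forkhead gene Foxo6 had 1.12 (1.07 to 1.18). The lowest was 0.818 (0.749 to 0.892), in a 55.6 kb domain of chromosome 17 without a protein-coding gene, and the next were 3 more such domains with 0.840, 0.841 and 0.848. Pebp4 was the fifth, with 0.848 (0.789 to 0.912).

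The lists differed in how far a domain was broken up. A domain was 1 unbroken peak in 186 of 794 cases in WT (23.4%, Wilson 20.6 to 26.5). The mdx list had 125 such domains (15.7%, 13.4 to 18.4) and the mdxTLR4-/- list 77 (9.70%, 7.83 to 12.0). In the 190 domains of at least 100 kb WT no longer stood above mdx, with 11.1%, 11.6% and 4.74% in WT, mdx and mdxTLR4-/-. Over all shared regions, most of which are far shorter, the shares were 75.8%, 62.6% and 61.3%. The median number of pieces was 2.5 in WT, 3 in mdx and 4 in mdxTLR4-/-, the highest 10, 15 and 19, and the domains summed to 2275, 2899 and 3585 pieces. From WT to mdx the number of pieces was higher in 421 domains (53.0%, background 26.9%) lower in 175 (22.0%, background 9.29%) and the same in 198 (24.9%, background 63.8%). From WT to mdxTLR4-/- it was higher in 555 (69.9%, background 28.8%) lower in 86 (10.8%, background 7.24%) and the same in 153 (19.3%, background 63.9%). From mdx to mdxTLR4-/- it was higher in 433 (54.5%, background 21.6%), lower in 193 (24.3%, background 17.7%) and the same in 168 (21.2%, background 60.7%). The background regions are shorter and seldom split, and both directions are more frequent in the domains than in the background. Per 100 kb, the domains had 3.29 pieces in WT, 4.19 in mdx and 5.19 in mdxTLR4-/-, and the regions of 20 to 50 kb had 6.57, 8.15 and 9.30. The number of pieces did not follow the unscaled density, which was highest in mdx.

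**Figure D5:**
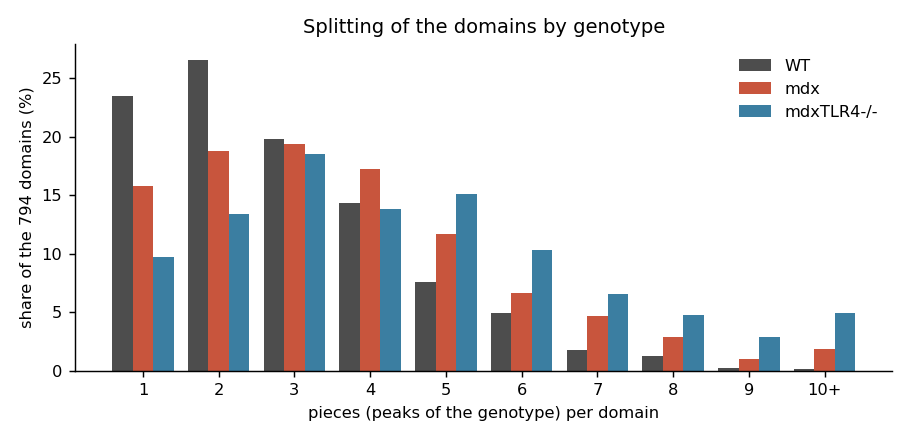
Share of the 794 domains in percent by the number of pieces (peaks of that genotype in the domain), for WT (grey), mdx (red) and mdxTLR4-/- BMDM (blue). A single piece was found in 23.4% of the domains in WT, 15.7% in mdx and 9.70% in mdxTLR4-/-, and the mdxTLR4-/- bars stand highest from 5 pieces on.

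Splitting was strongest where density was low. With the domains in 3 groups by density in WT, the lowest group had 5.27 pieces per 100 kb in WT, 6.93 in mdx and 8.58 in mdxTLR4-/-, and the highest had 2.09, 2.44 and 2.92. Pieces were also fewer at high G+C content. From the lowest to the highest G+C group they went from 4.26 to 2.51 per 100 kb in WT, while the mdx list went from 4.60 to 3.67 and the mdxTLR4-/- list from 6.73 to 3.93. The 30 domains that were 1 piece in each of the 3 genotypes were led by Vegfa, the vascular growth factor (207.2 kb; 83.1, 98.5 and 81.9 reads per kb in WT, mdx and mdxTLR4-/-), whose gene end the domain touches while its start lies outside. Next came a domain of the mucins Muc4 and Muc20 (123.6 kb), the 5S rRNA array, Nptx1 (95.6 kb) and Slc32a1 (88.2 kb), the vesicular GABA transporter. At the other extreme, the keratin domain of Krt6b to Krt76 went from 6 pieces in WT to 15 in mdx and 16 in mdxTLR4-/-, and the domain of Grhl3, a factor of epidermal development, from 4 to 13 and 14. A 97.8 kb domain of chromosome 2 with no protein-coding gene was 1 piece in WT and 9 in both mdx and mdxTLR4-/-. The potassium channel gene Kcnn3 had 5, 12 and 9 pieces, Nmnat2, an NAD-synthesizing enzyme of neurons, 4, 11 and 12, and Syn2, a synaptic vesicle protein, 3, 7 and 14. Some domains were less split in mdx, such as Hoxc with 4, 1 and 5 pieces and the Gimap domain with 9, 3 and 8.

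The breaks themselves were short. There were 1481 gaps inside domains in WT, 2105 in mdx and 2791 in mdxTLR4-/-, and the shortest possible gap under the peak caller's rule, 800 bp, made up 54.6%, 49.2% and 45.4% of them. Gaps of at least 2 kb numbered 158, 274 and 464. When only these were counted as breaks, 82.6% of the domains were in 1 piece in WT, 71.8% in mdx and 59.8% in mdxTLR4-/-, in the same order of genotypes. Many gaps were found in 1 list alone. A gap overlapped none in the other genotypes in 46.1% of cases in WT, 49.1% in mdx and 56.3% in mdxTLR4-/-, and 35, 36 and 66 gaps overlapped gaps in both. Peaks covered 96.1%, 94.5% and 92.1% of the domain bases, so many short gaps would miss each other wherever they lay. The overlap to be expected was not computed, and these shares are not read as a trait of a genotype. The longest, 14.0 kb, lay in the Gse1 domain of chromosome 8 in mdxTLR4-/-, followed by 12.4 kb at Ttc28 in mdxTLR4-/- and 12.0 kb in a domain of chromosome 11 without a protein-coding gene in mdx.

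Gaps differed from the pieces in sequence. Their G+C content was 43.9% in WT, 45.5% in mdx and 44.1% in mdxTLR4-/-, against 48.8%, 48.8% and 48.9% in the pieces of the same list, and repeats made up 32.4%, 34.3% and 31.2% of their bases against 23.4%, 23.1% and 23.1%. The gaps of mdx alone stood apart from those of the other lists. The 1034 gaps that overlapped none elsewhere had 46.1% G+C and 11.9 CpG per kb in mdx, against 44.0% and 10.5 in the 683 of WT and 43.5% and 9.63 in the 1572 of mdxTLR4-/-. They held 19 protein-coding starts in mdx, 4 in WT and 7 in mdxTLR4-/-. Over all gaps of each list, and not only these, there were 12.6 protein-coding starts per Mb of gap in mdx, 8.47 in WT and 5.46 in mdxTLR4-/-. Per Mb of piece there were 15.1, 15.3 and 15.8, in the same order. The lower ratio of mdx to WT at high G+C content, given above, moves with these values, and its part in them was not tested.

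At the gene starts themselves the mark was present in nearly all cases. Of the 1033 protein-coding starts in domains, 98.4% (97.4 to 99.0) were under a WT peak, 95.6% (94.2 to 96.7) under an mdx peak and 97.3% (96.1 to 98.1) under an mdxTLR4-/- peak, against 24.5%, 24.7% and 23.6% of all protein-coding starts, and 962 were under a peak of all 3 genotypes. Being inside a merged region makes cover by at least 1 list certain, so the high shares follow in part from the rule. From WT to mdx, 40 starts lost their peak (3.87%, background 6.6% of the starts in all shared regions) and 12 gained one (1.16%, background 3.39%). From WT to mdxTLR4-/-, 23 lost theirs (2.23%, background 7.63%) and 12 gained one (1.16%, background 2.92%). Going from mdx to mdxTLR4-/-, 19 lost theirs (1.84%, background 5.98%) and 36 gained one (3.49%, background 4.49%). The background includes the starts in domains. The most frequent change was a start left bare in the mdx list alone, at 31 starts (3.00%), and in the other shared regions this class made up 3.22%.

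Several named starts of that class lay in short breaks. Hoxa13, the last gene of the Hoxa cluster, lay in an 800 bp gap of the mdx list, the only break of the Hoxa domain in any genotype, and its promoter is the 45 CpG sequence printed above. Cdkn2a encodes the cell cycle inhibitor p16Ink4a and the protein p19Arf. Its annotated start, the first base of the gene, lay in a 1000 bp gap of the mdx list, and its promoter window also held 45 CpG. Other starts within the gene were not examined. The domain was 82.6 kb long, with 35.0 reads per kb in WT, 46.1 in mdx and 35.8 in mdxTLR4-/-. The start of the neighbouring Cdkn2b in the same domain was under a peak of each genotype. Unc5b, a netrin receptor, was in an 800 bp gap, Msi1, an RNA-binding protein of neural progenitors, in one of 1200 bp, and Rxra, a retinoid receptor with an H3K27ac peak within 1 kb in mdxTLR4-/- alone, lay beyond the edge of the mdx pieces. The 21 promoters of the class with a matching sequence had a median of 18 CpG (range 1 to 53), against 13 (0 to 58) for 567 promoters covered in all 3 genotypes. The median was 26 for 5 promoters bare in WT alone and 9 for 10 bare in mdxTLR4-/- alone. For those covered in 1 genotype alone it was 15 in WT (3 promoters), 17 in mdx (3) and 12 in mdxTLR4-/- (2). Starts covered in WT and mdx but not in mdxTLR4-/- numbered 14 (1.36%, against 4.91% in the other shared regions). They included Mymk, which encodes the muscle fusion protein myomaker and lay in a 4400 bp gap, Mb (myoglobin, 800 bp) and Mafa, a beta cell factor (800 bp). The keratins Krt16, Krt27 and Krt28 were also among them, in gaps of 4600, 2200 and 3600 bp. Mymk also had an H3K27ac peak within 1 kb of its start in mdx. Chst15, a sulfotransferase in the second longest domain, was under an H3K27me3 peak in WT alone, with gaps of 1200 bp in mdx and 1000 bp in mdxTLR4-/-. Its start had an H3K27ac peak within 1 kb in WT and in mdxTLR4-/-. Six5 and Grik4 were among 5 starts covered in mdx alone (0.484%, against 2.11% in the other shared regions). Zbtb46 was among 5 covered in mdxTLR4-/- alone (0.484%, against 1.53%). These genes were chosen for naming after their values were seen.

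H3K27ac peaks were rare inside the domains. There were 62 in WT, 53 in mdx and 42 in mdxTLR4-/-, or 0.897, 0.767 and 0.607 per Mb, against 6.22, 4.82 and 5.08 per Mb elsewhere on chromosomes 1 to 19. WT peaks touched 56 domains (7.05%, 5.47 to 9.05), mdx peaks 51 (6.42%, 4.92 to 8.35) and mdxTLR4-/- peaks 39 (4.91%, 3.61 to 6.64). Of all shared regions, which are shorter, 2.13%, 1.68% and 1.59% were touched. The peaks in domains were weak, with medians of 9.5, 8 and 6 reads against 11, 10 and 8 over each whole list, and the lists are shallow, so that an absent peak does not show absent acetylation. In all, 109 domains were touched in any genotype and 9 in all 3. Of the starts in domains, 6 in WT, 4 in mdx and 7 in mdxTLR4-/- had an H3K27ac peak within 1 kb (0.581%, 0.387% and 0.678%), against a background of 28.7%, 24.6% and 26.6% of all protein-coding starts. The H3K27ac list of mdxTLR4-/- came from 1 library and the others from 2 each, so the counts of the lists are not on one scale.

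The domains touched in all 3 genotypes included those of Col1a1 (248.6 kb, with 2, 1 and 3 H3K27ac peaks in WT, mdx and mdxTLR4-/-), the MHC genes H2-Q4 to H2-Q10 (2, 1 and 1), the transporters Slc47a1 and Slc47a2, the Asic4 to Inha domain, and the Wnt ligand gene Wnt11. Several of these peaks lay at an edge. The peaks of the Asic4 to Inha domain, with 40, 33 and 37 reads in WT, mdx and mdxTLR4-/-, had their centres within 172 bp of the start of the neighbouring gene Stk11ip at the end of the domain. The peaks near Slc47a1, with 15, 10 and 5 reads, also lay at the end of their domain, at least 29656 bp from the nearest start. In contrast, H2-Q4 had its start within 716 bp of the centre of an H3K27ac peak in each genotype, inside the domain, and lay in a 1000 bp gap of the mdxTLR4-/- H3K27me3 list. Hjurp, in another domain, is again a case at an edge, with its start at chr1:88277633 and the first base of the domain at chr1:88275801. The start lay within 832 bp of the centre of an H3K27ac peak in each genotype, and the mdx peak reached past that edge. The H3K27ac peaks at Hjurp had 51, 36 and 21 reads in WT, mdx and mdxTLR4-/-. The Hjurp start lacked an H3K27me3 peak in mdx alone, where it lay beyond the edge of the mdx pieces. Of the 62, 53 and 42 H3K27ac peaks in domains, 55, 39 and 29 overlapped an H3K27me3 peak of the same genotype. A further 2, 3 and 1 fitted wholly into a gap, and 5, 11 and 12 lay outside the pieces of their genotype at a domain edge. Pieces covered 96.1%, 94.5% and 92.1% of the domain bases, so overlap would be frequent wherever these peaks lay.

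Not all domains had genes to name. Of the 794, 228 held no protein-coding start and 97 touched no protein-coding gene. The 5 longest of the latter were 201.6 kb on chromosome 6, 170.2 kb on chromosome 12, 166.6 kb on chromosome 18, 146.2 kb on chromosome 14 and 133.4 kb on chromosome 15, and the first held 4 annotated lincRNA genes and was in 2, 8 and 9 pieces in WT, mdx and mdxTLR4-/-. Domains without a protein-coding gene had a median of 34.2 reads per kb in WT, 41.0 in mdx and 31.4 in mdxTLR4-/-, and their median ratios of 1.21 for mdx and 0.948 for mdxTLR4-/- to WT were near those of all domains. In base composition the domains as a whole were richer in G+C (48.6%) and CpG (13.2 per kb) and poorer in repeats (23.7%) than chromosomes 1 to 19 (41.9%, 8.51 per kb and 33.5%), and close to the other shared regions (47.1%, 12.7 per kb and 24.9%). In 15 domains repeats made up at least 40% of the bases, and in 2 at least 50%.

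The limit of 50 kb cut through a continuous range. Just inside it, at 50 kb, were the domains of Ccdc187, of Nphs1, Prodh2 and Arhgap33, and of Nr2f2, an orphan nuclear receptor, with 41.3, 38.9 and 43.3 reads per kb in WT. Just outside, at 49.8 kb, were 6 regions, among them those of the forkhead gene Foxd1, of the kinase gene Hunk, and of Alox12e and Alox15, with 42.8, 40.4 and 47.0 reads per kb in WT.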

How the data were processed

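H3K27me3 and H3K27ac ChIP-seq peak lists of BMDM were used, 1 per mark and genotype. Per the submitters' processing notes and the methods of the study, the authors used CASAVA 1.8, cutadapt 1.15, Bowtie2 2.3.4 and SICER 2.0 with the mm10 build, merged replicates, and called peaks with windows of 200 bp, gaps of 600 bp and an FDR under 0.01. The value deposited by the authors is a count of ChIP reads per peak, with no scaling and no input subtracted. Removal of duplicate reads and exclusion lists are not given in the sources used here. Reads in peaks, which are not library depth, numbered 8331331 for WT, 10199918 for mdx and 7358418 for mdxTLR4-/-.

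Genes were those of GENCODE vM21, and a gene start is the first base of the gene on its strand. Base composition came from GRCm38.p6, with repeats as soft-masked there. Density ratios carry exact intervals of read counts and shares carry Wilson 95% intervals. Both cover counting error or the spread over domains or genes and not variation among animals. Named domains were the 12 longest, those extreme in pieces, density ratio or density, those in 1 piece, those of the Hox clusters, those without a protein-coding gene, those with H3K27ac in all lists and those at the length limit. The domains, the lists and these rules were chosen with earlier results of these data known. The merging and counting were tested on simulated data. Alternatives were other minimum lengths, merging distances, peak thresholds, scalings and definitions of pieces and starts. The tools were matplotlib 3.10.9, pysam 0.24.0, pandas 2.3.3, scipy 1.17.1 and numpy 2.4.6 in Python 3.11.15.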

Additional observations from a re-analysis of the deposited data

Results flagged for a closer look

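Each H3K27me3 list also held 1 peak on mitochondrial DNA, outside the chromosomes compared, with 2655 reads for WT, 3880 for mdx and 965 for mdxTLR4-/-. It is shown as signal in data that no comparison used. Mitochondrial DNA carries no histones, and no control sample was used for these values.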

How the results depend on the processing

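No paired analysis was possible because the replicates were merged before peaks were called, and for the same reason no replicate could be left out. Depth per library is unknown, and the shallow H3K27ac lists limit the counts of touched domains. In all, 59 of 105 recomputed values stayed within the interval of the value reported (counts within 1.5 times). The alternative without domains of at least 40% repeats was chosen after seeing the data. It left 779 domains, and every result recomputed under it stayed within that interval.

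The number of domains, 794, was 357 at a minimum of 75 kb, 190 at 100 kb and 201 when a single peak of at least 50 kb was asked of each list, and lay between 731 and 1179 under the other settings.

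The density ratios changed direction with the scaling. Scaled to reads in peaks, mdx to WT went from 1.21 to 0.984, mdxTLR4-/- to WT from 0.968 to 1.10 and mdxTLR4-/- to mdx from 0.805 to 1.12. Relative to the 1st percentile they were 1.03, 1.06 and 1.03, so that only the first kept its direction. Otherwise the ratios, in the same order, were 1.20, 0.977 and 0.810 at 75 kb, 1.19, 0.980 and 0.818 at 100 kb, 1.21, 0.975 and 0.807 with equal numbers of peaks, and 1.18, 0.930 and 0.791 over the whole domain length. With denser peaks mdxTLR4-/- gave 0.974 to WT and 0.809 to mdx, and with merging up to 600 bp 0.803 to mdx.

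The share in 1 piece in WT, mdx and mdxTLR4-/- was 82.6%, 71.8% and 59.8% when only gaps of at least 2 kb split a domain, 16.3%, 10.8% and 7.36% with merging up to 600 bp, and 11.1%, 11.6% and 4.74% at 100 kb, where WT no longer stood above mdx. With denser peaks it was 29.0% in WT and 18.9% in mdx. The cause was not tested.

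The share of starts under a peak was 99.8%, 99.5% and 99.2% with a peak within 1 kb of the start, and 95.4% in mdxTLR4-/- over all annotated genes. With H3K27ac peaks of at least 10 reads, 3.78%, 1.64% and 1.26% of the domains were touched. It was 9.24%, 8.68% and 5.88% at 75 kb, and 11.6%, 7.89% and 7.37% at 100 kb.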

Other observations

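Chromosome X, which the rule leaves out, had 263 merged regions and 97 shared regions, of which 0 reached 50 kb. The longest was 36.6 kb.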
